A study of Gasterosteus aculeatus with 242 samples.

Results

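Gene expression was compared between the left and the right side of the brain in juvenile threespine sticklebacks (Gasterosteus aculeatus) that had been raised by their fathers. All fish labelled Day 10 were taken: of the 242 fish in the series, 55 of these gave a left and 63 a right brain side. Each fish gave RNA from 1 side, so every left and right value comes from a different animal. In this species the father alone tends nest and fry, and the series asked what that care does to the brain and behaviour of the offspring.

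The father-reared fish had wild-caught fathers from Putah Creek, California, came from 8 families with 12 to 16 fish each (family is read here from the leading number of the fish code, which the labels do not define), and were 6 to 8 months old and not yet mature. The baseline fish (25 left and 32 right sides) were taken from a home tank. The open-field fish (30 left and 31 right) had been put singly into a pool, had met a moving model of a sculpin, a fish that preys on sticklebacks, after 10 minutes, and were killed 60 minutes after that mock attack. Left sides came from 28 females and 27 males, and right sides from 33 females and 30 males. Hand-reared fish, labelled Day 0, gave 64 left and 60 right sides and served as other animals in which to look at the same genes. By the breeding design some families had a parent in common, and which ones is not given in the labels, so father-reared and hand-reared families may be related. The rest of each brain went to another assay and was not analysed here.

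The labels name the left or right brain and no region. Markers of brain regions could not be looked up, because the counts carry Ensembl identifiers only, and 0 of 22456 identifiers matched the reference table of 52177 genes. Genes are therefore given by identifier, and neither their function nor their sequence is given.

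The vertebrate brain is built as a mirror pair with known departures. In zebrafish, Nodal signalling on the left of the embryo directs the parapineal organ to that side. The left and right habenulae, small relay nuclei in the roof of the forebrain, differ in their neurons and connections. Optic nerve fibres of bony fish cross at the midline, so each optic tectum receives the view of the opposite eye. Unpaired midline structures such as the pineal organ and the pituitary have no left or right copy, and which side received them is not given in the labels.

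Brain side went with the sibling pair. In 56 of 56 pairs of a baseline and an open-field fish with the same family and fish number, both fish gave the same side, in 25 pairs the left and in 31 the right. Families held 4 to 8 left and 7 to 8 right fish, and family 27 had the fewest left fish. Libraries, which count tags near the 3′ end of transcripts, were of similar depth on both sides: left libraries held between 726863 and 1527919 counts and right libraries between 708282 and 1529047 (two-sided permutation test of the means, p = 0.70). The number of genes detected was 13567 ± 349 on the left (SD, n = 55) and 13591 ± 381 on the right (SD, n = 63; permutation p = 0.72). The 10 most counted genes took 10.7% ± 1.13 of the counts on the left and 10.5% ± 1.05 on the right (permutation p = 0.48). Adjusted over the 3 measures, each p was 0.72.

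No gene passed the test between brain sides in father-reared fish. With family, exposure, sex and plate as further terms, edgeR's quasi-likelihood test called 0 of 7682 genes (0%) at an adjusted p under 0.05, and the smallest adjusted p was 0.35. At an unadjusted p under 0.05 there were 555 genes (7.22%), 344 of them with higher values on the right and the others with higher values on the left. DESeq2 also called 0 genes, with 536 at an unadjusted p under 0.05. Limma-voom called 3 genes (0.0391%), with 566 at an unadjusted p under 0.05. Of these 3, ENSGACG00000000093 was higher on the right, and ENSGACG00000006256 and ENSGACG00000017329 were higher on the left.

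Side differences were closely bounded for most genes. The median estimate over all genes was 0.0013 on the log2 scale, and the median distance from 0 was 0.04. The estimate lay within 1.1-fold of no difference for 89.7% of genes. For 97.89% of genes the whole 95% interval (normal, from the standard error) stayed within 1.5-fold in either direction. An estimate beyond 1.5-fold was found for 15 genes, 13 of them higher on the right and 2 higher on the left (50.8% of all tested genes were higher on the right). The median standard error of these 15 was 0.30 on the log2 scale, against 0.06 over all genes, and 11 of them had an unadjusted p under 0.05. The estimates of all genes ranged from -1.32 to 0.99, and the highest came with a standard error of 0.67 and an unadjusted p = 0.14 by edgeR.

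The other terms of the same fit all gave calls. Family gave 3737 genes (48.6%), and plate, read from the leading digit of the library name, gave 3103 (40.4%). Sex gave 757 (9.85%), with 439 higher in males and 318 higher in females. Exposure to the open field gave 28 (0.364%), 27 higher and 1 lower in open-field fish. As a share of a gene's variance between fish, side took a median of 0.363%, exposure 0.306%, sex 0.612%, plate 4.16% and family 11.7%. After all terms 75.6% remained between fish. Family had 7 degrees of freedom and plate 2, against 1 each for side, exposure and sex. Any term takes some share from noise alone, and more with more degrees of freedom. The medians of family and plate are therefore not directly comparable with the others. How much of each median is noise was not tested. For a single gene the highest share was 13.3% for side, 69.04% for exposure and 88.8% for sex. Side and exposure thus had similar medians, while the most responsive gene to exposure or sex followed its term far more closely than any gene followed side.

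**Figure D1:**
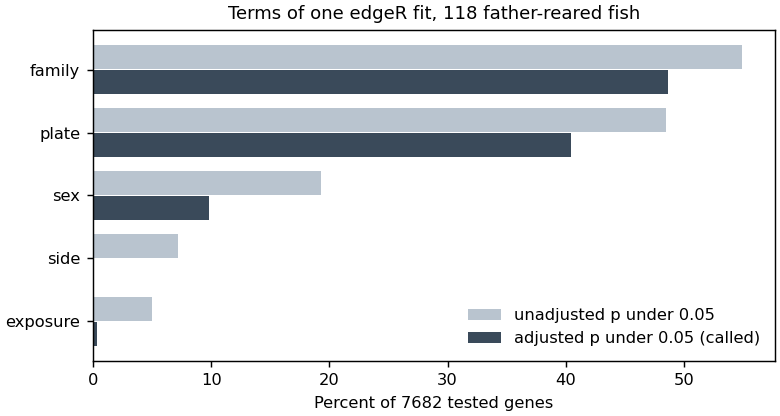
Percent of the 7682 tested genes below a p of 0.05 for each term of one edgeR fit over the father-reared fish (55 left, 63 right). Pale bars are unadjusted p-values and dark bars are calls at an adjusted p under 0.05; side has 7.22% in the pale bar and 0% in the dark one, and exposure 5.02% and 0.364%.

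The gene with the smallest p was ENSGACG00000000093, with somewhat higher values on the right. Left sides ranged from 101.8 to 312 counts per 1000000 counts (CPM) with a median of 218.6, and right sides from 172.9 to 387 CPM with a median of 259. The sides overlapped over most of their range, and the lowest values were all on the left. Means were 217.7 ± 49.98 CPM on the left (SD, n = 55) and 257 ± 45.8 CPM on the right (SD, n = 63), a log2 fold change of 0.22 (SE 0.05) or 1.17-fold (edgeR quasi-likelihood test, unadjusted p = 4.6e-05, adjusted p = 0.35). Limma-voom called this gene (adjusted p = 0.046) but not once siblings of a pair, which share the side, were joined as a random effect (adjusted p = 0.053). DESeq2 did not call it (adjusted p = 0.18), and over 26 alternatives the adjusted p ran from 0.0012 to 0.998. The 0.0012 came from an edgeR fit with 1 side term that also used the hand-reared fish, chosen after seeing the data. The right mean was higher in 8 of 8 families, by 0.73 CPM in family 17 and by 22.6 to 62.3 CPM in the other families. Plate by plate the log2 fold change was 0.32, 0.15 and 0.12 in plates 1, 2 and 3 fitted alone.

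This gene's difference had the same direction in both exposures and both sexes. The gene was chosen on these same fish, so that likeness is partly built in. No exposure or sex called it (edgeR, adjusted p = 0.65 in baseline, 0.46 in open-field, 0.98 in female and 0.17 in male fish). The difference was 0.18 (SE 0.08) on the log2 scale in baseline and 0.26 (SE 0.07) in open-field fish, and the test of side by exposure gave p = 0.45 (edgeR, unadjusted). It was 0.21 (SE 0.08) in females and 0.24 (SE 0.08) in males, and the test of side by sex gave p = 0.73 (edgeR, unadjusted). In hand-reared fish the left mean was 226.3 ± 51.7 CPM (SD, n = 64) and the right mean 260.0 ± 53.6 CPM (SD, n = 59, without 1 library under 500000 counts). With that library kept, the log2 fold change in hand-reared fish was 0.19 (SE 0.05, edgeR, unadjusted p = 9.5e-04, adjusted p = 0.56). Without it, the right mean was higher in 8 of 8 hand-reared families. The difference between the rearing groups was 0.04 (SE 0.08, edgeR, unadjusted p = 0.63), with a 95% interval from -0.11 to 0.19.

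The next gene with higher values on the right was ENSGACG00000007961, an abundant transcript. It ranged from 938 to 1391 CPM on the left (median 1109) and from 1015 to 1536 CPM on the right (median 1170.4). The sides overlapped almost throughout, and the right mean was higher in 7 of 8 families. Its log2 fold change was 0.09 (SE 0.02, edgeR, unadjusted p = 1.5e-04, adjusted p = 0.37).

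On the left side the smallest p belonged to ENSGACG00000009170 and ENSGACG00000009701, neither of them called. ENSGACG00000009170 ranged from 53.9 to 103.1 CPM on the left (median 75.4) and from 44.8 to 92.2 CPM on the right (median 68.1). Its sides overlapped widely. The left mean was higher in 8 of 8 families, with right minus left between -10.8 and -1.42 CPM. Its log2 fold change was -0.13 (SE 0.04, edgeR, unadjusted p = 4.8e-04, adjusted p = 0.37). ENSGACG00000009701, a gene of low counts, ranged from 4.74 to 19.4 CPM on the left (median 10.9) and from 3.49 to 16.8 CPM on the right (median 9.17). Its left mean was higher in 7 of 8 families, and the log2 fold change was -0.31 (SE 0.09, edgeR, unadjusted p = 7.9e-04, adjusted p = 0.39). All genes named for father-reared fish were chosen on these same fish, so agreement between their families is partly built in.

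For these 3 genes the hand-reared estimates lay closer to 0. The genes were chosen on the father-reared fish, so weaker estimates in other fish and small side-by-rearing p-values are partly built in. The hand-reared log2 fold change was 0.03 (SE 0.02, edgeR, unadjusted p = 0.14) for ENSGACG00000007961. It was 0.00 (SE 0.04, edgeR, unadjusted p = 0.97) for ENSGACG00000009170 and -0.10 (SE 0.09, edgeR, unadjusted p = 0.30) for ENSGACG00000009701. In hand-reared families the right mean of ENSGACG00000007961 was higher in 6 of 8. The left mean there was higher in 5 of 8 for ENSGACG00000009170 and in 6 of 8 for ENSGACG00000009701. The test of side by rearing gave unadjusted p-values of 0.070, 0.025 and 0.085 for the 3 genes in this order, and each adjusted p was 1.00 (edgeR), so a difference between rearing groups was not shown. Across the father-reared fish (n = 55 left and 63 right), after side and the other terms were removed, none of the 6 pairs among the 4 genes passed the correlation test. The r farthest from 0 was -0.16, between ENSGACG00000000093 and ENSGACG00000009701 (Spearman rho -0.13, permutation p = 0.082 and 0.18, adjusted over 10 pairs p = 0.16 and 0.35).

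**Figure D2:**
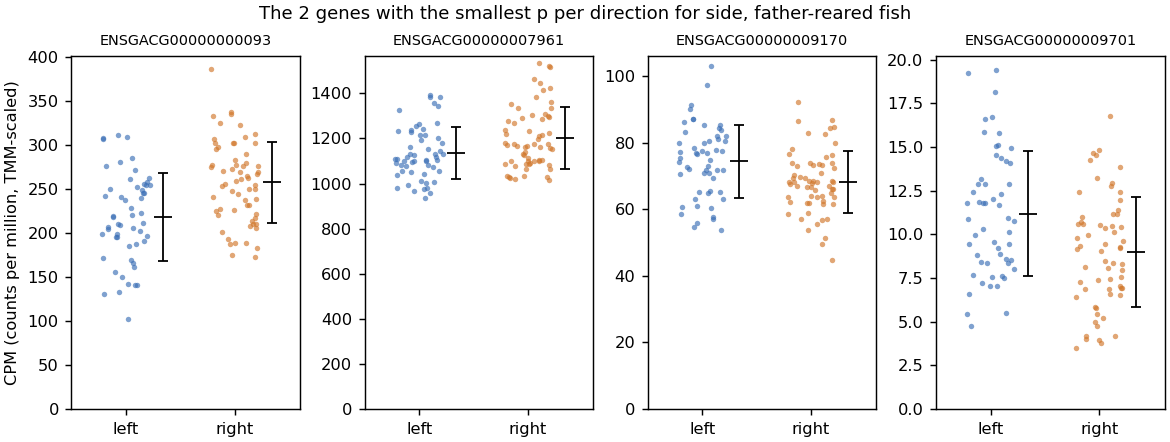
CPM of the 2 genes with the smallest p in each direction of brain side (2 higher on the right, 2 higher on the left), 1 point per father-reared fish, left (blue, n = 55) and right (orange, n = 63), with mean and SD in black. Sides overlap in every panel; in ENSGACG00000000093 left fish reach down to 101.8 CPM and right fish to 172.9 CPM.

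The 2 left-sided estimates beyond 1.5-fold belonged to genes that were counted in some fish and hardly in others. Both passed the low-count filter over all 242 fish and not the same filter over the 2 sides of father-reared fish, so that alternative has no value for them. ENSGACG00000017329 ranged from 0 to 54.8 CPM on the left (median 1.85) and from 0 to 64.9 CPM on the right (median 0). It had no count in 24 of 55 left and 41 of 63 right libraries. At 10 CPM or more, a level chosen after the values were seen, stood 24 left fish (43.6%) and 13 right fish (20.6%). Among those fish the median was 27.5 CPM on the left and 20.1 CPM on the right. In bulk tissue, fewer cells of a type and less RNA per cell cannot be told apart. By edgeR the log2 fold change was -1.32 (SE 0.41, unadjusted p = 0.0016, adjusted p = 0.39). DESeq2 gave -1.28 (adjusted p = 0.75) and limma-voom -2.04 (adjusted p = 0.046, and 0.053 with siblings of a pair as a random effect). Over 25 alternatives the adjusted p ran from 0.0012 to 0.998. The 0.0012 came from the edgeR fit with 1 side term that also used the hand-reared fish.

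ENSGACG00000006256 was high in a subset of the same fish. It ranged from 0 to 29.3 CPM on the left (median 2.64) and from 0 to 50.9 CPM on the right (median 1.03). It reached 10 CPM in 15 left (27.3%) and 5 right fish (7.94%), and each of these fish also reached 10 CPM for ENSGACG00000017329. The log2 fold change was -0.99 (SE 0.31, edgeR, unadjusted p = 0.0021, adjusted p = 0.39). Limma-voom gave -1.46 (adjusted p = 0.026). It called this gene alone (0.013% of genes) when siblings of a pair were joined as a random effect (adjusted p = 0.032). Over 25 alternatives the adjusted p ran from 0.0012, in the same edgeR fit that also used the hand-reared fish, to 0.998. Of 56 sibling pairs, which share the side, both fish were high for ENSGACG00000017329 in 9, 1 fish in 18 and neither in 29.

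The left-sided difference of both genes was uneven over plates. In plate 2, 14 of 21 left but 4 of 27 right fish reached 10 CPM for ENSGACG00000017329, with a log2 fold change of -2.34 (SE 0.56) fitted alone. In plate 1 the counts were 4 of 20 left and 5 of 21 right fish, and the log2 fold change was 0.18 (SE 0.69). In plate 3 they were 6 of 14 left and 4 of 15 right fish, with -1.26 (SE 1.19). Without plate 2, an alternative added after the values were seen, the log2 fold change was -0.31 (SE 0.60, edgeR, adjusted p = 0.98). ENSGACG00000006256 gave -0.07, -2.14 and -0.53 in plates 1, 2 and 3, and -0.07 (SE 0.42, edgeR, adjusted p = 1.00) without plate 2. For both genes the father-reared estimate was thus largest in plate 2 and smaller without it. Whether the side difference differed between plates was not tested.

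Families also differed. ENSGACG00000017329 had a higher left mean in 6 of 8 families and a higher right mean in families 07 and 31. The widest gap was in family 27, with 20.2 CPM on the left (4 fish) and 0.143 CPM on the right (8 fish). ENSGACG00000006256 had a higher left mean in 5 of 8 families, with families 07, 26 and 31 the other way. Leaving out 1 family at a time gave log2 fold changes from -1.66 to -0.96 for ENSGACG00000017329 and from -1.35 to -0.71 for ENSGACG00000006256. For both genes the weakest of these came without family 27.

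Hand-reared fish also had the higher values on the left for both genes, and there not in plate 2 above all. ENSGACG00000017329 reached 10 CPM in 33 of 64 left (51.6%) and 14 of 59 right fish (23.7%), a log2 fold change of -1.42 (SE 0.36, edgeR, unadjusted p = 1.5e-04, adjusted p = 0.30), with a higher left mean in 8 of 8 families. In hand-reared fish of plate 1 it was high in 17 of 29 left and 3 of 20 right fish, in plate 2 in 11 of 22 and 7 of 21, and in plate 3 in 5 of 13 and 4 of 18. ENSGACG00000006256 had a higher left mean in 6 of 8 hand-reared families. It reached 10 CPM in 21 left (32.8%) and 7 right fish (11.9%), with a log2 fold change of -1.23 (SE 0.32, edgeR, unadjusted p = 1.6e-04, adjusted p = 0.30). Each of these hand-reared fish again reached 10 CPM for both genes. For ENSGACG00000017329, 24 of 33 left and 9 of 31 right hand-reared baseline fish reached 10 CPM. In hand-reared open-field fish these were 9 of 31 and 5 of 28. ENSGACG00000006256 reached it in 15 of 33 and 5 of 31 baseline fish, and in 6 of 31 and 2 of 28 open-field fish. Whether the side difference of hand-reared fish differed by exposure was not tested. The test of side by rearing gave p = 0.75 for ENSGACG00000017329, with a 95% interval of the difference from -0.94 to 1.31, and p = 0.45 for ENSGACG00000006256, with an interval from -0.57 to 1.28 (edgeR, unadjusted). Both genes were called by limma-voom in father-reared fish alone and by a fit over fish of both rearing groups. The limma-voom call used side values of father-reared fish only. The filter on low counts and the second fit both used the hand-reared fish, so the hand-reared values are given as a description and no separate test.

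**Figure D3:**
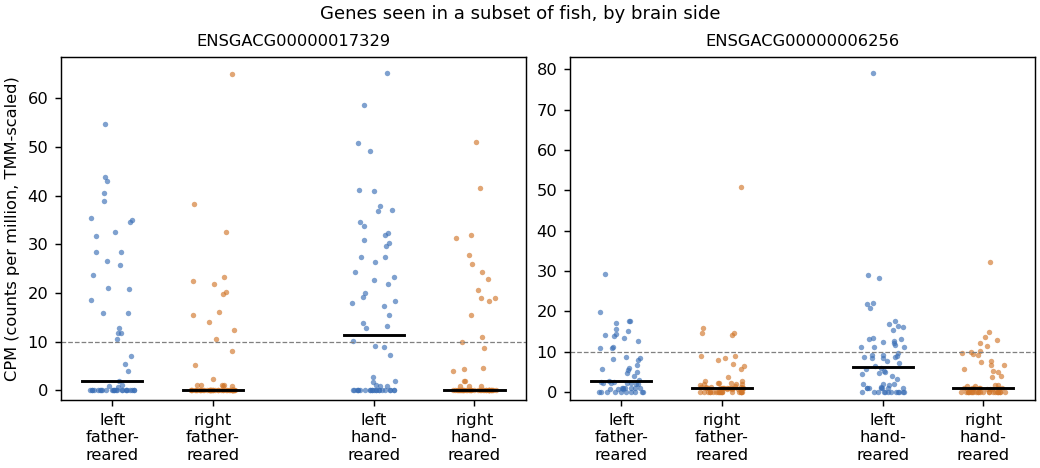
CPM of ENSGACG00000017329 and ENSGACG00000006256, 1 point per fish, by side in father-reared (55 left, 63 right) and hand-reared fish (64 left, 59 right); black lines are medians and the dashed line marks 10 CPM. More left than right fish lie above the line in both rearing groups (24 and 13 father-reared, 33 and 14 hand-reared, for ENSGACG00000017329).

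When father-reared and hand-reared fish shared 1 side term, genes did pass. Over all 242 fish edgeR called 12 of 7682 genes (0.156%), 7 higher on the right and 5 higher on the left, with 661 at an unadjusted p under 0.05. In father-reared fish alone none of the 12 was called (edgeR, adjusted p from 0.35 to 0.62), although all 12 had an unadjusted p under 0.05 and the same direction in each rearing group. The 12 were chosen on these same fish, so that likeness is partly built in. For 7 of the 12 the hand-reared estimate was farther from 0 than the father-reared one, and side by rearing had an unadjusted p under 0.05 for 1 of them.

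Beside ENSGACG00000000093, the right-sided gene with the smallest p over all fish was ENSGACG00000016172. In father-reared fish it ranged from 41.5 to 586.5 CPM on the left (median 182.9) and from 59.7 to 651 CPM on the right (median 251). The sides overlapped widely, and the right mean was higher in 7 of 8 of these families and in 7 of 8 hand-reared families. The log2 fold change was 0.39 (SE 0.12, edgeR, unadjusted p = 0.0012, adjusted p = 0.39) in father-reared and 0.42 (SE 0.11, edgeR, unadjusted p = 2.0e-04, adjusted p = 0.30) in hand-reared fish. It was 0.24, 0.36 and 0.39 in plates 1, 2 and 3 of the father-reared fish. It was 0.19 (SE 0.17) in baseline and 0.57 (SE 0.16) in open-field fish, and 0.21 (SE 0.16) in females and 0.58 (SE 0.17) in males, and the tests of side by exposure (unadjusted p = 0.10) and by sex (unadjusted p = 0.14) did not pass (edgeR).

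This pair of right-sided genes went together from fish to fish. After side and the other terms were removed, ENSGACG00000000093 and ENSGACG00000016172 correlated over the father-reared fish (Pearson r = 0.59, Spearman rho = 0.54, n = 55 left and 63 right, both permutation p = 1e-05, the smallest that 100000 resamples can give, adjusted p = 3.3e-05 over 10 pairs). Without the 2 fish farthest from the median r was 0.55, and it was 0.66 within left and 0.48 within right sides. ENSGACG00000000093 and ENSGACG00000017329, the leading genes of opposite directions, had r = 0.17 and rho = 0.16 (permutation p = 0.065 and 0.086, adjusted p = 0.16 and 0.21).

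**Figure D4:**
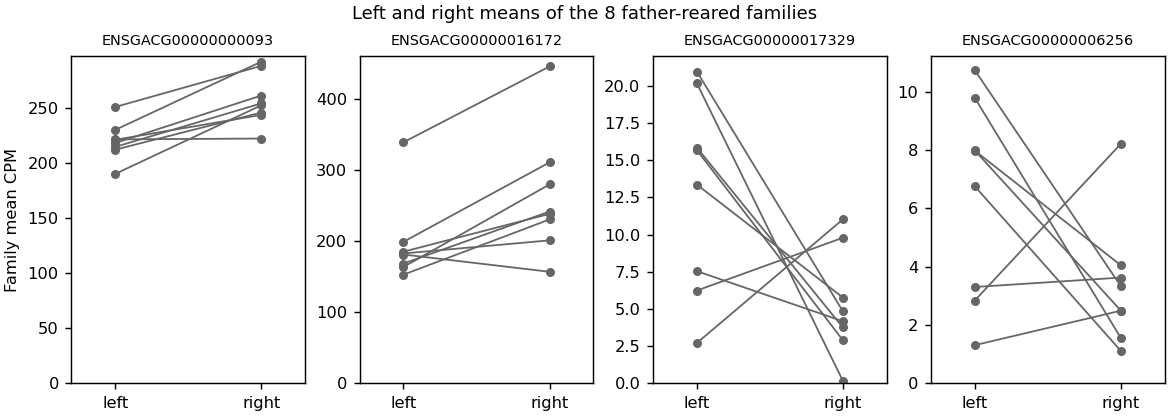
Mean CPM of left and right fish in each of the 8 father-reared families (1 line per family) for the 2 right-sided and the 2 left-sided genes with the smallest p over all fish. Lines go up in 8 of 8 families for ENSGACG00000000093 and in 7 of 8 for ENSGACG00000016172, and down in 6 of 8 for ENSGACG00000017329 and in 5 of 8 for ENSGACG00000006256.

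Over all tested genes, side differences of father-reared and hand-reared fish were weakly alike. Hand-reared fish alone gave 0 called genes (0%, edgeR), with 421 (5.48%) at an unadjusted p under 0.05, and DESeq2 and limma-voom called 0 as well, with 395 and 428 at an unadjusted p under 0.05. Of the 555 father-reared genes at an unadjusted p under 0.05, 353 (63.6%) had the same direction in hand-reared fish, against 54.8% of all tested genes. Of the 555, 48 also had an unadjusted p under 0.05 in hand-reared fish, which is 8.65% of the father-reared and 11.4% of the hand-reared list, and 40 of the 48 had the same direction. Log2 fold changes in the 2 rearing groups, which share no fish, had Pearson r = 0.28 and Spearman rho = 0.14 across 7682 genes. Genes are not independent replicates, so these values are descriptions with no test.

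**Figure D5:**
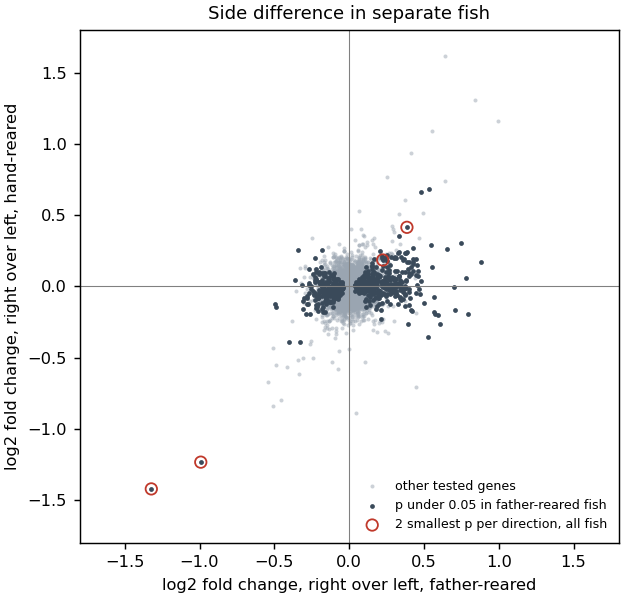
Log2 fold change of right over left in father-reared fish (horizontal) and hand-reared fish (vertical), 1 point per tested gene (7682). Dark points have an unadjusted p under 0.05 in father-reared fish and lie above and below 0 on the vertical axis (353 of 555 share the direction); red circles mark the 2 genes with the smallest p per direction over all fish, with ENSGACG00000017329 at -1.32 and -1.42.

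Whether the side difference of father-reared fish differed from that of hand-reared fish was tested directly. The side-by-rearing term called 0 of 7682 genes (0%) by edgeR, with 328 (4.27%) at an unadjusted p under 0.05. DESeq2 and limma-voom called 0 genes, and by both tools 317 genes had an unadjusted p under 0.05. With all 242 fish in 1 fit, a shared estimate of the spread and side nested in rearing, 3 genes (0.0391%) were called in father-reared fish, all higher on the right. The 2 with the smallest p were ENSGACG00000011698 and ENSGACG00000007959.

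ENSGACG00000011698 ranged from 21.3 to 215.5 CPM on the left (median 41.2) and from 28.3 to 353 CPM on the right (median 43.7). Its medians were close, while the means were 57.4 ± 42 CPM on the left (SD, n = 55) and 75.2 ± 69.6 CPM on the right (SD, n = 63). ENSGACG00000007959 ranged from 14.8 to 281 CPM on the left (median 41.2) and from 19.4 to 360.4 CPM on the right (median 49.4). Both sides held a few fish far above the median of each gene. The right mean was higher in 7 of 8 families for ENSGACG00000011698 and in 8 of 8 for ENSGACG00000007959. In hand-reared families it was higher in 6 of 8 for each gene.

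These calls depended on the fit. Log2 fold changes of the 3 genes in the shared fit lay between 0.37 and 0.46. Fitted on father-reared fish alone, ENSGACG00000011698 had 0.37 (SE 0.10, adjusted p = 0.37, edgeR) and ENSGACG00000007959 had 0.44 (SE 0.12, adjusted p = 0.37, edgeR), and standard errors of the 3 genes were 1.16 to 1.28 times those of the shared fit. Hand-reared fish varied less in CPM, with an SD of 7.86 CPM on the left and 8.77 CPM on the right for ENSGACG00000011698. The SDs of both rearing groups include differences between families, which the fits take out, so they are not the spread behind these standard errors. Hand-reared log2 fold changes of the 3 genes were 0.07 to 0.10, and the side-by-rearing p-values were 0.014 to 0.021 before and 1.00 after adjustment (edgeR). The 3 genes were chosen for their father-reared difference, so this gap between rearing groups is partly built in. ENSGACG00000011698 was also among the 12 genes called by the single side term over all fish (log2 fold change 0.24, edgeR, adjusted p = 0.045). Each of those 12 had an unadjusted p under 0.05 and the same direction in hand-reared fish alone (edgeR), and was chosen on fish of both rearing groups. ENSGACG00000007959 was not called there (edgeR, adjusted p = 0.055).

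For both genes the estimate was higher in males than in females, and neither difference between the sexes passed after adjustment. The log2 fold change of ENSGACG00000011698 was 0.59 (SE 0.15, edgeR, adjusted p = 0.075) in males and 0.17 (SE 0.15) in females, with side by sex at an unadjusted p = 0.049 and an adjusted p = 0.79. That of ENSGACG00000007959 was 0.68 (SE 0.17, edgeR, adjusted p = 0.073) in males and 0.21 (SE 0.17) in females, with side by sex at an unadjusted p = 0.056 and an adjusted p = 0.81. Family 31 had the highest level on both sides, 143.6 CPM on the left and 208.6 CPM on the right for ENSGACG00000011698, and 204.4 and 229.3 CPM for ENSGACG00000007959. Without family 31 the log2 fold changes were 0.33 and 0.49 (edgeR, adjusted p = 0.46 and 0.36). Both genes rose and fell together over the father-reared fish (r = 0.69, rho = 0.64, n = 55 left and 63 right, permutation p = 1e-05, the smallest possible, adjusted p = 3.3e-05), and r was 0.66 without the 2 fish farthest from the median.

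Side was also tested within each exposure and each sex of the father-reared fish, and 0 genes were called in any of the 4 tests (0% of 7682, edgeR). At an unadjusted p under 0.05 there were 499 genes in baseline and 472 in open-field fish, and 341 in females and 636 in males. By DESeq2 each of the 4 tests called 0 genes, and in the same order 509, 450, 329 and 611 genes had an unadjusted p under 0.05. The smallest adjusted p in males was 0.070 by edgeR and 0.055 by DESeq2, and in females 0.79 by edgeR and 0.74 by DESeq2. The tests of the change itself gave 0 calls as well (0%, edgeR), with 432 genes for side by exposure and 481 for side by sex at an unadjusted p under 0.05. DESeq2 called 0 for both terms, with 418 and 447, and limma-voom called 0 for both, with 439 and 485. A dependence of the side difference on exposure or sex was not shown, and the 95% interval of that dependence stayed within 1.5-fold for 85.4% of genes for exposure and 82.7% for sex.

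Sides were finally compared along the main axes of variation between fish. Principal components were taken from log2 CPM after family, exposure, sex and plate had been removed, and sides were permuted among sibling pairs within families. The second component, with 5.03% of the remaining variance, scored -1.999 ± 7.30 on the left (SD, n = 55) and 1.75 ± 8.79 on the right (SD, n = 63), with r = 0.23 (10000 permutations, p = 0.018, adjusted over 5 components p = 0.091). The first, with 8.75% of the variance, had r = 0.17 (permutation p = 0.099, adjusted p = 0.16), and the third, with 3.12%, had r = -0.18 (permutation p = 0.087, adjusted p = 0.16). The fourth and the fifth had permutation p = 0.92 and 0.65, so no component passed the adjustment. Of the 13 genes with a right-sided estimate beyond 1.5-fold, 4 were among the 20 genes of greatest weight in the first component, 6 among those of the second, 2 among those of the third, 1 in the fourth and 0 in the fifth, with 20 of 7682 genes in each such list. Genes were not scaled to equal variance, so widely varying genes weigh more and also reach large estimates more easily. This overlap is therefore a description and no evidence of a side difference. ENSGACG00000017329 and ENSGACG00000006256 were both among the 20 of the third.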

How the data were processed

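RNA of 1 brain side per fish was sequenced as 3′ tags on 6 lanes with 100 nt reads, per the labels' protocols. The authors deposited whole-number counts per Ensembl gene, library and lane, made with STAR 2.2.3a, HTSeq 0.9.1 and FastQC 0.11.8 among the tools, per the submitters' processing notes. The genome build, strand setting and duplicate removal are not stated there, so counts of overlapping, antisense or near-identical genes are uncertain. The 6 lanes of a library were summed (chi-square per degree of freedom between lanes at most 1.11; at least 2.66 between libraries of a group).

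Genes were kept with filterByExpr (minimum count 10) over rearing and exposure in all 242 fish, which left 7682. The main test was edgeR 4.0.16 (R 4.3.3), quasi-likelihood, TMM scaling, Benjamini-Hochberg adjustment, with family as block and exposure, sex and plate as terms. Standard errors were taken as the size of the log2 fold change over the square root of F. DESeq2 1.42.0 and limma-voom 3.58.1 were alternatives. All 3 were tested on simulated data. CPM was computed here after TMM. CPM values of hand-reared fish leave out 1 right library under 500000 counts, which the quoted tests keep. Intervals describe the uncertainty of an estimated mean difference, given the variation between fish, and not the range of single fish.

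Named genes are, per direction, the 2 smallest p-values. Genes from the fits over all fish, the 10 CPM level and the components were added after values were seen. The comparison and all lists were chosen with earlier results of these data known. Marker lists need gene symbols and were not tested.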

Additional observations from a re-analysis of the deposited data

How the results depend on the processing

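The count of 0 genes called for side in father-reared fish held in 22 of 26 alternatives. Many of these 22 used only part of the fish and could find less, so their 0 calls add little. Limma-voom called 3, limma-voom with sibling pairs as a random effect 1, the fit of all fish with side nested in rearing 3, and a single side term over all fish 12, the last chosen after seeing the data. Leaving out each of the 8 families in turn gave 0 calls each time, with 5.58% to 8.73% of genes at an unadjusted p under 0.05 and a smallest adjusted p of 0.087 (edgeR, without family 17). With no filter, 0 of 20253 genes were called and 1373 had an unadjusted p under 0.05. The 4 genes named as the 2 smallest p-values per direction kept it in 26 of 26 alternatives, and ENSGACG00000006256 in 25 of 25 (it and ENSGACG00000017329 do not pass the low-count filter over father-reared fish alone). Genes were chosen on the same fish that the alternatives refit, so keeping the direction is largely built in. ENSGACG00000017329 kept its direction in 24 of 25, and its log2 fold change turned to 0.18 in plate 1 alone. The cause was not tested. No paired analysis was possible because both fish of each of the 56 sibling pairs gave the same side. The correlation within pairs after the other terms was 0.017. At this depth 7682 of 20626 genes with a count were tested.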
